A study of Mus musculus with 2 samples.

Results

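The beta-globin cluster is described here through the CTCF peaks around its 4 member genes, Hbb-bt, Hbb-bs, Hbb-bh1 and Hbb-y, on mouse chromosome 7. A peak was taken when its summit lay in, or within 100 kb of, one of these genes in the IDR optimal list, which keeps peaks whose rank repeats between lists (IDR, irreproducible discovery rate). This gave 7 peaks of 57220 in the whole list, in a window of 240693 bp (chr7:103712524-103953216, mm10). CTCF was profiled by ChIP-seq in the liver of B6NCrl mice on the day of birth (postnatal day 0), in 1 group of 2 replicates with no treatment. The labels give no sex, and the control experiment that the labels name is not analysed here. Both replicates carry the same biosample and donor labels, for ground livers pooled over several dissections, so their spread may be technical only. Peak lists hold no expression, so the tissue was not checked against marker genes.

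CTCF binds DNA at a motif that has a direction and, together with cohesin, anchors chromatin loops. The beta-globin genes encode the beta-type chains of hemoglobin, with Hbb-y and Hbb-bh1 used in embryonic red cells and Hbb-bs and Hbb-bt in adult ones. Expression of all of them is raised by the locus control region, a run of DNase I hypersensitive sites (5'HS1 to 5'HS6) upstream of Hbb-y. The newborn liver still forms red cells beside its hepatocytes, and the peaks cannot be assigned to either. Olfactory receptor genes, which serve smell and are silent in blood, lie on both sides. In red cells, CTCF sites beyond both ends of the cluster are known to come together in a loop.

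The sequences below are the best match to the 14-base CTCF core within 50 bp of each summit. The mismatches and the orientation described later were read from these sequences. Each is read 5′ to 3′ on the strand of the match, with the core match in capitals and 8 bases of the RefSeq GRCm38.p6 genome on each side. They run in chromosome order. Each name is that of the hypersensitive site annotated by RefSeq at the summit, and 1 peak had no such site.
3'HS1, chr7:103793086-103793115, forward strand, 0 mismatches: gttgcataCCAGTAGGGGGCAGaagtgttc
unannotated site, chr7:103807064-103807093, reverse strand, 2 mismatches: tcagtcaaCCTCAAGGGGGCAGtattgagc
5'HS2, chr7:103861140-103861169, forward strand, 4 mismatches: gaacacacCCACAGGGTGGGGAgtggagaa
5'HS4.2, chr7:103873255-103873284, reverse strand, 4 mismatches: gcagaaggACGAGAGAGGGCAGcaaagttg
5'HS5, chr7:103874634-103874663, reverse strand, 1 mismatch: cgttttcaCCACTAGAGGGAAGacaattat
HS-62.5, chr7:103913170-103913199, reverse strand, 1 mismatch: tagtgtagCCACCAGGGGGAAGgggtaacc
HS-85.5, chr7:103942933-103942962, reverse strand, 1 mismatch: agatgtgaCCAGGAGAGGGCAGcagagggt

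CTCF flanked the globin genes and left the genes themselves free of peaks. Of the 7 peaks, 2 lay beyond the 3' end of Hbb-bt, 5 lay upstream of Hbb-y and 0 lay in the 40693 bp from Hbb-bt to Hbb-y. All 7 were intergenic in the GENCODE M21 annotation, and none was within 1 kb of a transcript start. The stretch without a peak that holds the 4 genes was 54.1 kb long, from the unannotated site to 5'HS2. The median distance between neighbouring autosomal peaks was 14.6 kb, and 17.3% of such distances were at least as long as this stretch. The stretch was taken because it holds given genes, and a long stretch is more likely to hold a given place. The share counts each distance once, so it does not tell how unusual the stretch is for a locus.

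**Figure D1:**
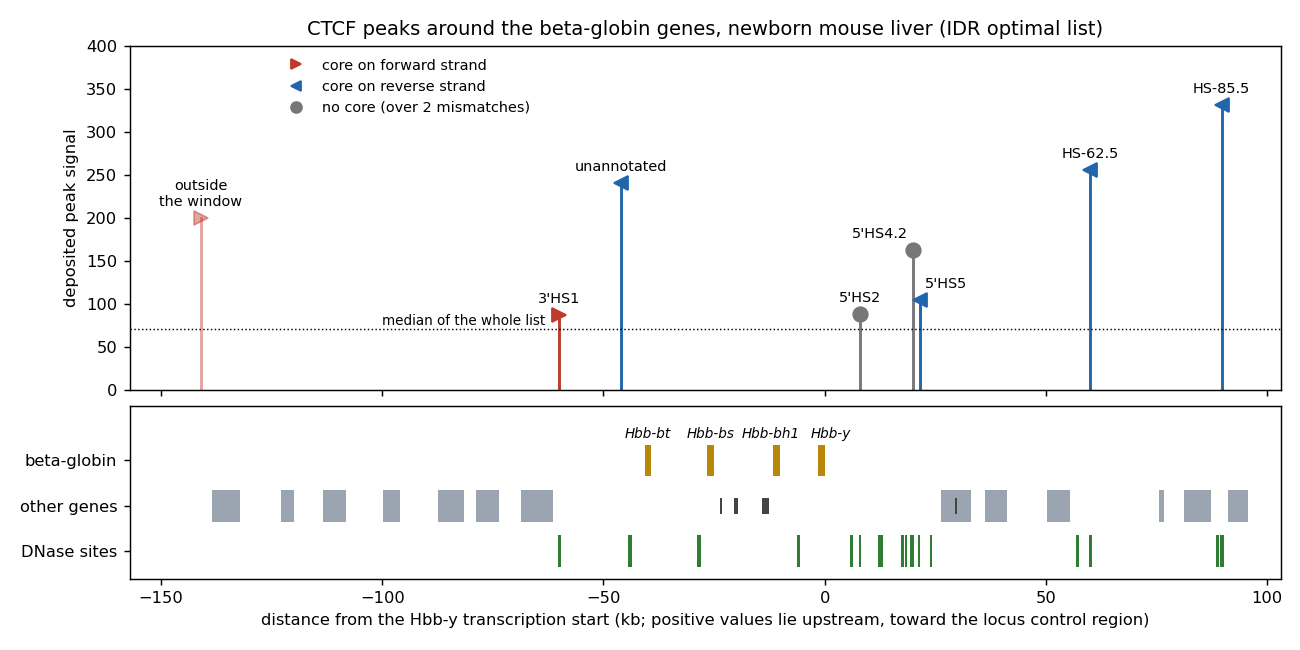
Deposited signal of each CTCF peak of the optimal list (top, vertical axis) against distance in kb from the Hbb-y transcription start, with arrowheads for the strand of the core and gray circles for peaks without it; the pale peak lies outside the window. The lower tracks show the 4 beta-globin genes, the other annotated genes (olfactory receptors in gray, globin-like genes and pseudogenes in black) and the RefSeq DNase I hypersensitive sites. The 7 peaks stand on both sides of the globin genes, all above the list median of 71.2 (dotted line).

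The signal used here is the value that the authors deposited for each peak. Its scale is not stated, so it serves to rank peaks within a list. A percentile is the share of peaks in the list with a lower signal. All 7 peaks were above the median of the whole list. The lowest signal among them was 87.5, the highest 331.0 and the median 162.9, against a median of 71.2 over the list, and their percentiles ran from 55.4 to 92.8. The rank of a member's signal was not used in the choice of members, but 7 peaks of 1 locus are no replicates, and no test was made.

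On the 3' side of the cluster, 3'HS1 marks the outer end. Its peak (103793003 to 103793129) had a signal of 87.5 in the optimal list, the weakest of the 7. The signal was 44.5 in the list of replicate 1 and 45.1 in that of replicate 2, so the replicates were nearly equal. RefSeq annotates a core CTCF-binding site and an enhancer-blocking element there. The annotated binding site (103793094 to 103793109, 16 bp) begins at the same base as the perfect core found under the peak. The nearest transcript start, that of the olfactory receptor gene Olfr67, was 1257 bp away.

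The unannotated site is the peak nearest to an adult globin gene. It lay 5447 bp beyond the 3' end of Hbb-bt (103806978 to 103807195) and 13999 bp from 3'HS1. Its signal was 240.7 in the optimal list, 127.7 in replicate 1 and 113.0 in replicate 2. It was thus well above 3'HS1 in both replicates. Its core differed from the motif at positions 3 and 5, counted from the 5′ end of the core. None of the 16 hypersensitive sites that RefSeq lists in the window covers it.

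Within the locus control region, 3 of the annotated hypersensitive sites carried a peak. The peak at 5'HS2, an erythroid enhancer (103861021 to 103861304), had a signal of 88.8 in the optimal list. By ratio the replicates differed most at this site, with 32.2 in replicate 1 and 55.4 in replicate 2. The ratio of replicate 1 to replicate 2 was 0.581, while its median was 1.04 over the 55542 peaks of the optimal list matched in both replicates. Only 4.32% of those peaks had a lower ratio, and at the other 6 members the ratio lay between 0.923 and 1.25.

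The peak at 5'HS2 had no CTCF core within 50 bp of its summit, and the match shown above is 1 of 6 with 4 mismatches. RefSeq annotates other factors there. The peak covers tandem sites of NF-E2, an erythroid activator, centered 70 bp from the summit.
5'HS2 NF-E2 sites, chr7:103861084-103861102, forward strand: TGACTCAGCATGACTCAGC
It also covers a site of GATA-1, the main erythroid transcription factor, 134.5 bp from the summit. That site begins at 103861026, close to the edge of the peak at 103861021. The peak is 284 bp wide, as are those of 3'HS1 and 5'HS5 in both replicates, so its width need not mark the extent of binding. The part of NF-E2 and GATA-1 in the signal was not tested.

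The peaks at 5'HS4.2 and 5'HS5 lie 1375 bp apart toward the far end of the locus control region, where only 5'HS6 lies beyond them. The distance between neighbouring autosomal peaks was as short or shorter in 8.08% of cases. At 5'HS4.2 (103873158 to 103873338) the signal was 162.9 in the optimal list, 77.3 in replicate 1 and 83.7 in replicate 2. This was the higher of the pair in both replicates. No core was found there either, and the best match had 4 mismatches, at core positions 1, 3, 4 and 5, so its 3′ part follows the motif. At 5'HS5 (103874585 to 103874703) the signal was 104.9 in the optimal list, 52.9 in replicate 1 and 53.4 in replicate 2. RefSeq gives a 72 bp CTCF-binding oligonucleotide with weak enhancer-blocking activity there, and the core under the peak lies inside it.

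Farther upstream, HS-62.5 and HS-85.5 carried the strongest peaks of the window. Both names give the distance upstream in the numbering of earlier studies. HS-62.5 (103913063 to 103913312) had a signal of 255.3 in the optimal list, 135.8 in replicate 1 and 121.1 in replicate 2. HS-85.5 (103942813 to 103943078) had 331.0 in the optimal list, 183.2 in replicate 1 and 146.7 in replicate 2. These ranked 8682 and 4137 of the 57220 peaks. On mm10 the summits were 59.98 and 89.73 kb from the Hbb-y start, among olfactory receptor genes. Each covers a 28 bp CTCF-binding site annotated by RefSeq, with the core inside it.

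The order of the sites was nearly the same in both replicates. HS-85.5 was highest, followed by HS-62.5, the unannotated site and 5'HS4.2, in replicate 1 and in replicate 2. Below these, 5'HS5 preceded 3'HS1 and 5'HS2 in replicate 1, whereas 5'HS2 preceded 5'HS5 and 3'HS1 in replicate 2. Replicate means were 164.9 ± 25.8 at HS-85.5, 128.4 ± 10.4 at HS-62.5, 120.3 ± 10.4 at the unannotated site and 80.5 ± 4.54 at 5'HS4.2 (SD, n = 2). They were 53.2 ± 0.354 at 5'HS5, 44.8 ± 0.430 at 3'HS1 and 43.8 ± 16.4 at 5'HS2 (SD, n = 2). The unannotated site and HS-62.5 overlapped in their replicate ranges, as did 5'HS2 with 3'HS1 and 5'HS5. The scales of the replicate lists are not known to be equal, so these means set the lists side by side only.

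**Figure D2:**
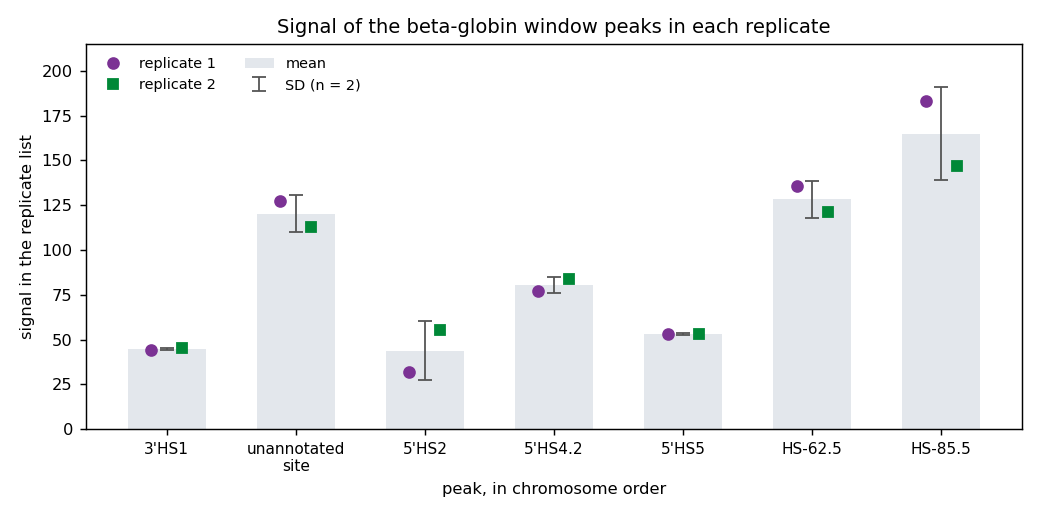
Signal in the list of replicate 1 (circles) and replicate 2 (squares) at the 7 peaks in chromosome order; bars are the mean and error bars the SD of both replicates. The replicates lie close together at 3'HS1 and 5'HS5 and farthest apart, by ratio, at 5'HS2 (32.2 and 55.4).

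All 7 peaks were matched by a summit within 100 bp in both replicate lists, where 97.1% of the whole optimal list was, and the largest offset was 22 bp. All 7 were also in the conservative list, which held 87.8% of the optimal peaks. Both IDR lists were made from the replicate lists and the pooled list, so these counts do not measure repeatability independently. At 50 bp, at 250 bp and by any overlap of intervals the count was again 7.

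The core motif was found, with at most 2 mismatches, at 5 of the 7 peaks (71.4%), near the 71.2% of the whole list. In windows 1 kb from the summits of the whole list it was found in 2.98%. The match was perfect at 3'HS1 alone among the 7, against 9.62% of the list. The single mismatch of 5'HS5 and that of HS-62.5 fell on the same base of the core, position 12. That of HS-85.5 fell on position 5. Among 16282 peaks of the list with 1 mismatch and 1 best match, 12.2% had it at position 12, with a median signal of 150.3, and 29.4% at position 5, with a median of 81.9.

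Within the cluster the perfect core lay under 1 of the weaker peaks, while over the whole list the median signal was highest for peaks with a perfect core. In the optimal list 3'HS1 was lowest of the 7, with 5'HS2 close above it, and in replicate 1 5'HS2 was lower. The perfect core of 3'HS1 went with a signal of 87.5, above only 17.1% of the list's 5500 peaks with a perfect core, whose median was 228.1. The unannotated site, with 2 mismatches, had 240.7, above 87.8% of the peaks with as many, whose median was 62.2. The peaks without the core were both strong for their class. 5'HS4.2 was above 93.2% and 5'HS2 above 84.3% of the 4700 peaks with 4 mismatches, whose median was 28.6. Among peaks with 1 mismatch, 5'HS5 was above 46.2%, HS-62.5 above 78.6% and HS-85.5 above 89.9%. With 7 peaks these are descriptions, and the difference from the list was not tested.

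**Figure D3:**
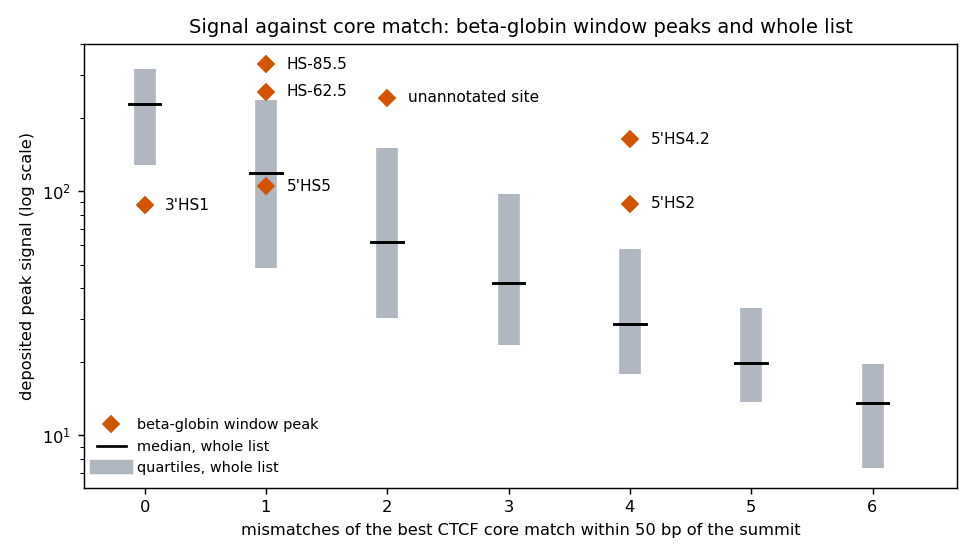
Deposited signal (log axis) against the number of mismatches in the best core match within 50 bp of the summit; diamonds are the 7 peaks of the beta-globin window, gray bars the quartiles and black lines the medians of the whole list. 3'HS1 lies below the quartile range of peaks with a perfect core, and 5'HS4.2 and 5'HS2 lie above that of peaks with 4 mismatches.

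The cores at the 2 ends of the cluster pointed toward each other. The core of 3'HS1 was on the forward strand, and those of the unannotated site, 5'HS5, HS-62.5 and HS-85.5 were all on the reverse strand. Over the whole list 49.8% of the peaks with a core on 1 strand had it on the forward strand. Of the 10 pairs that these 5 cores form, 4 were convergent, 6 were tandem and 0 were divergent. These counts follow from the strands and are no further result, as 3'HS1 has the only forward core and comes first in chromosome order. For the same reason every convergent pair included 3'HS1. Its pairs with 5'HS5, HS-62.5 and HS-85.5 enclosed all 4 globin genes and spanned 81.6, 120.1 and 149.9 kb, and its pair with the unannotated site enclosed none. The unannotated site formed tandem pairs across the genes. Peak lists hold no contacts between sites, so whether any pair forms a loop was not measured.

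Of the hypersensitive sites in the window, some carried an optimal CTCF peak and the others a weaker entry or none. RefSeq lists 16 in the window, at coordinates it calls approximate, and they cover 4.82% of it. Of the 7 peaks, 6 lay in one. Some of these sites were studied because they bind CTCF, so the annotation is not independent of binding. RefSeq lists 4 CTCF-binding sites in the window, at 3'HS1, 5'HS5, HS-62.5 and HS-85.5, and a member peak covered each of them.

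Among the other 10 hypersensitive sites, 5'HS3 came closest to a call. Its signal was 6.83 in replicate 1, 8.48 in replicate 2 and 14.6 in the pooled list. It was the sole site of the 16 with a summit in both replicate lists and none in the optimal list. The conservative list held it as the only further peak of the window. In replicate 1 alone there were weak peaks at 5'HS4 (5.08), at HS-3'beta1, an enhancer beyond the 3' end of Hbb-bs (4.91), and at 5'HS1 (3.50). No replicate list had a summit at HS-3'beta2, HS-E1, 5'HS4.1, 5'HS6, HS-60.7 or HS-84.5. Each replicate list was 300000 peaks long, whereas the optimal list held 57220. In the list of replicate 1 the weak peaks at 5'HS4, HS-3'beta1 and 5'HS1 ranked 85153, 89380 and 152129.

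**Figure D4:**
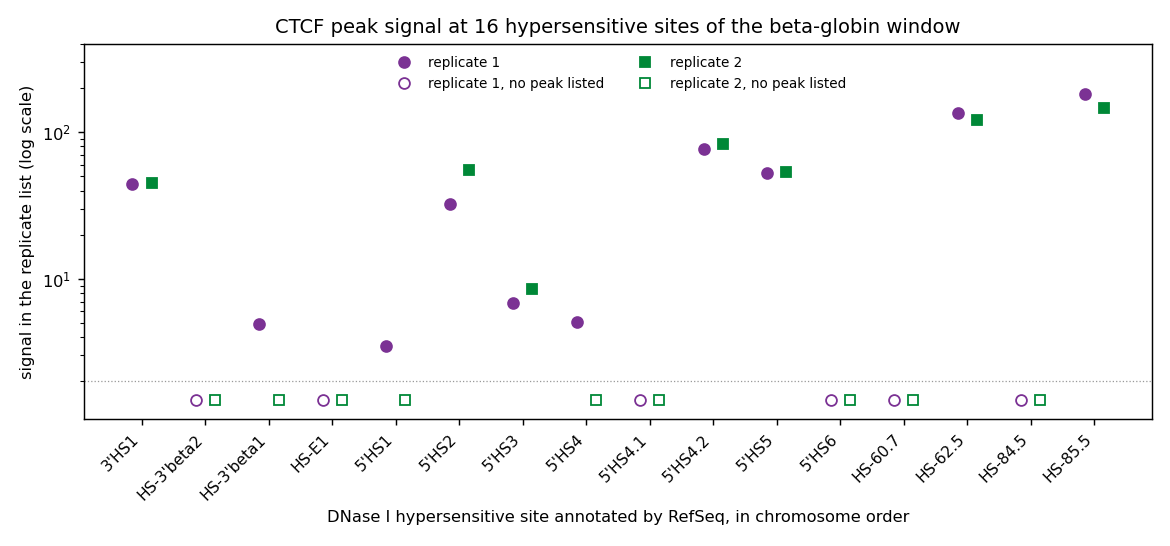
Highest peak signal (log axis) at each of the 16 DNase I hypersensitive sites that RefSeq annotates in the window, in chromosome order, in replicate 1 (circles) and replicate 2 (squares); open symbols under the dotted line mark sites where that list has no summit. The 6 sites with an optimal peak lie at 32.2 or higher in both replicates, and 5'HS3 lies at 6.83 and 8.48.

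None of the 4 globin genes had a promoter peak, that is, a summit within 1 kb of a transcript start, whereas 36.2% of all 21938 protein-coding genes did. With 4 genes that share their surroundings, no more is read from the count. At 5 kb from a start the count was again 0, and at 10 kb it was 2. The nearest peak was 6.92 kb from the 5' end of the adult gene Hbb-bt and 21.02 kb from that of its sister Hbb-bs, in both cases the unannotated site. For the embryonic genes the nearest was 5'HS2, at 18.0 kb from Hbb-bh1 and 7.95 kb from Hbb-y. Over all protein-coding genes the median distance was 5.70 kb. The promoters of the RefSeq table on GRCm38.p6, from 250 bases before to 50 after a start, held Hbb-bt, Hbb-bs and Hbb-y. The core was found in that of Hbb-bs, with 2 mismatches, and in 14.4% of all 32851 promoters of the table. The Hbb-bs promoter had no summit within 1 kb in the pooled list.

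Outside the optimal list, traces at the adult genes did not repeat between replicates. The pooled list held 25 further peaks in the window, including that of 5'HS3, with signals from 4.10 to 22.1 and a median of 5.66, and 6 of them had a summit within 100 bp in both replicates. At Hbb-bt a pooled peak of 5.33 lay 77 bp from the start, with 2.65 in replicate 1 and no peak in replicate 2. Within 1 kb of Hbb-bs there were 2, a pooled peak of 7.08 found in replicate 2 alone (7.16) and one of 4.64 found in neither replicate. Hbb-bt and Hbb-bs agree at 95.8% of their 1466 aligned bases, and how reads that fit both were placed is not given. The effect of that on signal inside these genes was not tested.

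The globin peaks lay among olfactory receptor genes, a family with few promoter peaks. The window held 23 annotated genes, of which 13 were protein-coding olfactory receptor genes. No gene of the window contained an optimal peak or had a promoter peak, and 1.15% of all 1135 protein-coding olfactory receptor genes had one. The 13 were 1.26 to 35.7 kb from the nearest optimal peak, with a median of 13.4 kb, against a median of 114.1 kb over all olfactory receptor genes. As the 13 share the peaks of 1 window, this contrast describes the neighbourhood and not the single genes. The shortest distance was that of Olfr67 to 3'HS1, and the start of Olfr633 lay 1491 bp from HS-85.5.

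Peak density in the window was 29.1 per Mb, compared with 25.8 on chromosome 7 and 22.6 on all autosomes, a ratio of 1.28 to the autosomes. Of 10223 consecutive autosomal windows of the same length, 33.4% held at least 7 peaks, and their median was 3 peaks. The ratio depended on the window and on the peaks counted. It was 0.802 with 200 kb around the genes, where the count was 8. In the same window it was 2.56 among peaks at or above the list median, a cut that kept all 7 members and removed only other peaks.

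Beyond HS-85.5 the next peak was 224.4 kb away, with a signal of 44.9 in the optimal list, 24.9 in replicate 1 and 19.4 in replicate 2. Distances this long or longer made up 2.93% of those between neighbouring autosomal peaks. On the other side, the next peak after 3'HS1 was 80.9 kb away (10.9% were as long or longer). Each of these stretches covers an end of the window, which also favors long ones, so the shares do not tell how unusual they are. The next peak after 3'HS1 lay 327 bp outside the window (103712093 to 103712314), with a signal of 199.6 in the optimal list, 108.7 in replicate 1 and 89.9 in replicate 2. Its core was on the forward strand with 1 mismatch, the same direction as that of 3'HS1.

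Some other genes of red cell formation carried CTCF at their promoters. Of 26 erythroid genes, including these 4, 11 (42.3%) had a promoter peak, near the 36.2% of all protein-coding genes. Among them were Zfpm1, which encodes a cofactor of GATA-1 (signal 407.3), and the alpha-like globin gene Hbq1b (217.4). The Zfpm1 peak was counted through another transcript start, since the peak nearest to the 5' end of the gene was 1.42 kb away. With only the 5' end of each gene used, 8 of the 26 genes had a promoter peak. Of the 9 globin genes in the list, 2 had a promoter peak, Hbq1b and its copy Hbq1a (211.9). The other alpha-type genes had their nearest peak at 2.58 kb (Hba-a1), 2.18 kb (Hba-a2) and 9.69 kb (Hba-x). Hbb-bs and Hbb-bh1 were thus farther from a peak than each of these alpha-type genes, and Hbb-bt and Hbb-y lay between Hba-a1 and Hba-x.

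Set beside the windows of 2 other gene clusters, the beta-globin window had the fewest peaks and the highest median signal. It held 7 peaks with a median signal of 162.9, the window of the 5 alpha-type genes on chromosome 11 held 24 with a median of 103.9, and the window of the 4 albumin family genes on chromosome 5 held 13 with a median of 94.7. The windows differed in length, at 240.7, 224.5 and 497.6 kb in that order, and held 29.1, 106.9 and 26.1 peaks per Mb. The weakest peak had 87.5 in the beta-globin window, 12.6 in the alpha-globin window and 16.1 in the albumin window. The core was found at 5 of 7, 16 of 24 and 9 of 13 peaks. Inside the named genes there were 0 peaks in the beta-globin window, 1 in the alpha-globin window and 3 in the albumin window. No test of these differences was made, since each cluster is 1 locus.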

How the data were processed

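CTCF ChIP-seq was deposited as narrowPeak lists on mm10, per the labels: 1 per replicate, 1 pooled, and a conservative and an optimal IDR list. Each replicate list was derived from that replicate's alignments and the pooled list from both, per the text deposited with the samples. The sources used here do not name the aligner, the peak caller or the thresholds. The signal per peak is the authors' deposited value of unstated scale. The authors' deposited −log10 q value was not used to rank or filter peaks. Read depth is unknown, so no interval on a signal is given.

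Members were selected by summit (start plus offset). Lists were matched by summits within 100 bp. Coordinates are 1-based on GRCm38, which mm10 names, with GENCODE M21 genes and RefSeq elements. Sequence was read with pysam 0.24.0. The 14-base CTCF core was sought on both strands, within 50 bp on either side of each summit, allowing up to 2 mismatches. The matching was tested on simulated data. Named genes are the 4 members, window genes nearest to a peak, and from the erythroid list the 3 with the strongest promoter peak, of which 1 is not reported here, and the globin genes. Olfr64 and other sites of weak peaks were named after their values were seen. Of 27 listed erythroid genes 26 were found by symbol. Members and lists were chosen with earlier results of these data known. With 1 group, no test was made.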

Additional observations from a re-analysis of the deposited data

How the results depend on the processing

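The alternatives were the conservative list, the peaks at or above the list median, each replicate alone (as many of its strongest peaks as the optimal list holds), and other distances, mismatches and match rules. The peak count of the window ran from 5 (50 kb) to 9 (without replicate 1). The density ratio to the autosomes was 1.57 with 50 kb, 0.802 with 200 kb and 2.56 among peaks at or above the list median, and 1.28 to 1.65 with 1 replicate left out. The percentile of the members' median signal was 71.6 in the optimal list, 64.7 in the conservative list, 43.1 among peaks at or above the list median and 59.97 with 50 kb. It was 61.9 to 69.5 with 1 replicate left out. The cut at the list median kept all 7 members and removed only other peaks, so the ratio rose and the percentile fell by construction. With 50 kb, HS-62.5 and HS-85.5 fell outside, and the median signal was that of 5'HS5. The conservative list added the peak at 5'HS3, with a signal of 14.6. The cause of the other shifts was not tested. The core was found at 4 or 5 peaks in the alternatives run for it, and where strands were counted 1 was forward and 3 or 4 were reverse. The number of peaks also changed, so the core was at 5 of 8 with the conservative list and at 5 of 9 without replicate 1. Promoter peaks at the 4 genes numbered 2 at 10 kb and 0 otherwise, and those of the erythroid list 18 at 5 kb and 8 to 12 otherwise. With 1 replicate left out, the nearest peak was 6.918 to 6.919 kb from Hbb-bt, 21.018 to 21.019 kb from Hbb-bs, 18.002 to 18.009 kb from Hbb-bh1 and 7.950 to 7.957 kb from Hbb-y. No paired analysis was possible because there is 1 group, and the results come from no test.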

Other observations

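The strongest peak of the window that the IDR lists leave out lay at Olfr64, an olfactory receptor gene between 5'HS5 and HS-62.5, 802 bp from its start (103893541 to 103893824). Its signal was 22.1 in the pooled list, 6.12 in replicate 1 and 13.4 in replicate 2, and neither the optimal nor the conservative list held it. In the optimal list, 14.9% of the peaks had a lower signal. Of the 50111 pooled peaks with this signal or more, 1435 (2.86%) had no optimal summit within 100 bp.

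The conservative list held a peak at 5'HS3 that the optimal list lacks. Over the whole genome, 4636 of the 54864 conservative peaks (8.45%) had no optimal summit within 100 bp. The signal at 5'HS3 was 14.6 in the pooled list, and 4.41% of the optimal peaks had a lower one.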
